A study of Mus musculus with 6 samples.

Results

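The SLC25 family, the carriers of the inner mitochondrial membrane, was followed in kidneys of mice with renal fibrosis induced by TGF-β1, on 6 arrays. Members were the genes whose symbol in the array annotation starts with Slc25a or is Ucp1, Ucp2 or Ucp3, taken from probe sets that carry a single symbol. This gave 44 genes of the 20416 measured, on 1 to 20 probe sets each (median 9.5). The B6-TGFbeta group (replicates 1, 2 and 3) is on the C57BL/6 background, as its name says, and the CBAxB6-TGFbeta group (replicates 4, 5 and 6) on a mixed one, CBA with B6. The labels call both groups fibrotic, add the word WT to the first and KO to the second without naming a gene, and include no kidney without TGFbeta. The sources used here do not give how TGF-β1 was raised, the promoter behind it, or the age and sex of the mice. Per the labels the animals compared were littermates of like age and the same sex. Background strain, the genotype that WT and KO may stand for, and a different response to TGF-β1 cannot be told apart in this design. The values are probe intensities, and whether sequence differences between the strains under the probes changed them was not tested. Each array was taken as 1 animal, and the p-values measure only the spread between these arrays.

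SLC25 proteins exchange nucleotides, phosphate, carboxylic acids, amino acids, acylcarnitine and cofactors between the cytosol and the mitochondrial matrix, and so link the respiratory chain and matrix enzymes to the rest of the cell. The uncoupling proteins belong to the same family, and Ucp1 dissipates the proton gradient as heat in brown fat. In the kidney the tubule epithelium, above all the proximal tubule, is rich in mitochondria and burns fatty acids to drive solute transport.

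More carriers were lower than higher in CBAxB6-TGFbeta kidneys. At an adjusted p under 0.05 in limma, with Benjamini-Hochberg adjustment over all genes, 9 of 44 members were lower (20.5%), against a background of 4.57% of all genes. Only Slc25a24 was higher (2.27% of the members, against 3.08% of all genes), and 34 members did not pass. The log2 difference, CBAxB6-TGFbeta minus B6-TGFbeta, was below 0 in 36 members (81.8%, against 46.1% of all genes), with a median of -0.20 over the members and 0.02 over all genes. All 3 CBAxB6-TGFbeta arrays lay below all 3 B6-TGFbeta arrays in 20 members (45.5%, against 13.4% of all genes), and above them in 1 member (13.5% of all genes). In whole kidney, fewer cells of a type and less RNA per cell cannot be told apart.

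**Figure D1:**
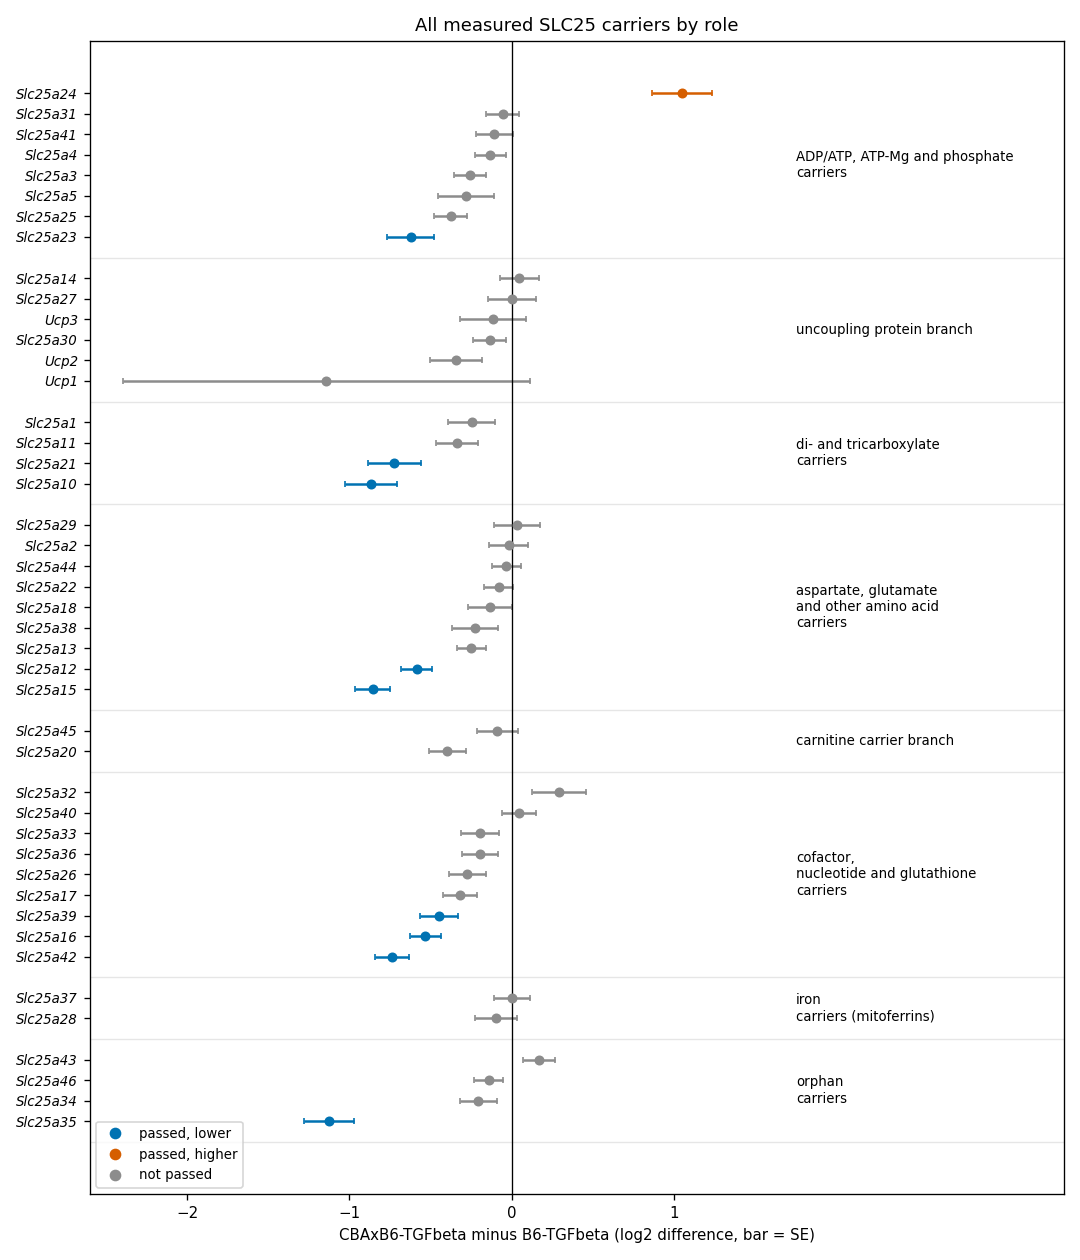
Log2 difference (CBAxB6-TGFbeta minus B6-TGFbeta, horizontal axis) of each of the 44 measured carriers, grouped by role, with the moderated standard error as the bar. Blue points passed and were lower (9 carriers), the orange point passed and was higher (Slc25a24), and grey points did not pass, among them Ucp1 with an SE of 1.25.

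Facts of the whole set of arrays bear on these values. The kidney labels matched the tubule markers, which were bright on all 6 arrays (a mean log2 intensity over 12 markers between 11.08 and 11.26 for B6-TGFbeta, and between 9.75 and 10.10 for CBAxB6-TGFbeta), and 10 of these 12 were lower in CBAxB6-TGFbeta, their summed linear intensities running from 34614.5 to 39136 and from 15268.5 to 20023. Of 8 leukocyte markers 5 were higher, with sums of 1655 to 2297 and 2962 to 4925. Over all genes 4.57% were lower and 3.08% higher. The part of either shift in the carrier differences was not tested. Xist was at most 4.72 and Kdm5d at least 8.51 on every array. B6-TGFbeta replicate 2 carried markers of brown fat, adipocytes and adrenal, and B6-TGFbeta replicate 1 some adrenal cortex genes, which is described with the uncoupling proteins.

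Among the carriers of adenine nucleotides and phosphate, the calcium-regulated ATP-Mg/phosphate carriers, which set the adenine nucleotide content of the matrix, differed in opposite directions. Slc25a24 had log2 intensities of 6.56, 6.62 and 6.75 in B6-TGFbeta and 8.11, 7.70 and 7.27 in CBAxB6-TGFbeta, so the groups did not overlap and the CBAxB6-TGFbeta arrays were spread more widely. The means were 6.65 ± 0.098 and 7.69 ± 0.42 (SD, n = 3 each). The log2 difference was 1.05 (SE 0.19, limma adjusted p 0.0110), 2.06-fold on the linear scale. Of its 10 probe sets 9 were higher. Slc25a24 missed the threshold without B6-TGFbeta replicate 1 (adjusted p 0.0605). Its paralog Slc25a23 had 9.39, 9.08 and 9.11 in B6-TGFbeta and 8.65, 8.77 and 8.29 in CBAxB6-TGFbeta. The Slc25a23 arrays again did not overlap between the groups, here with CBAxB6-TGFbeta below, at a log2 difference of -0.62 (SE 0.14, limma adjusted p 0.0330). That call was lost on leaving out any one B6-TGFbeta array (0.140, 0.0560 and 0.0848 for replicates 1, 2 and 3), and also on leaving out CBAxB6-TGFbeta replicate 6 (0.0573). Slc25a25, the third calcium-regulated paralog, stood at -0.38 (SE 0.10, limma adjusted p 0.0599), and all 13 of its probe sets were lower. Slc25a41, a short relative without the calcium-binding part, stood at -0.11.

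The unequal difference of these paralogs was described by the value of one minus the other within each array. Slc25a24 minus Slc25a23 was -2.83, -2.45 and -2.35 in B6-TGFbeta and -0.54, -1.07 and -1.02 in CBAxB6-TGFbeta, a shift of 1.67. Slc25a24 minus Slc25a25 shifted by 1.42. In an exact two-sided permutation test over the arrays both had p = 0.1, the smallest value that 3 arrays against 3 allow, and the adjusted value over the 4 pairs compared, which were chosen after their values were seen, was also 0.1. The groups did not overlap for either quantity. In both pairs the genes already lay apart between the groups in opposite directions. The permutation p was thus set in advance, and no conclusion is drawn from it.

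The ADP/ATP exchangers, which bring ADP in and send new ATP out, and the phosphate carrier did not pass. Slc25a4, the main exchanger of heart and muscle, had 12.40, 12.33 and 12.34 in B6-TGFbeta and 12.12, 12.23 and 12.31 in CBAxB6-TGFbeta, a difference of -0.13 (SE 0.096). The groups did not overlap for Slc25a4, but the gap between them was narrow. Slc25a5 rested on 1 probe set and stood at -0.28 (SE 0.17). Adding the 7 probe sets it shares with Gm5560, a choice made after seeing the data, gave -0.21 (limma adjusted p 0.263), and all 7 were below 0. The phosphate carrier gene Slc25a3 stood at -0.26 (SE 0.097, limma adjusted p 0.162), with all 10 probe sets lower. Slc25a31, the exchanger known from testis, was dim, its group means being 3.64 (B6-TGFbeta) and 3.58 (CBAxB6-TGFbeta).

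**Figure D2:**
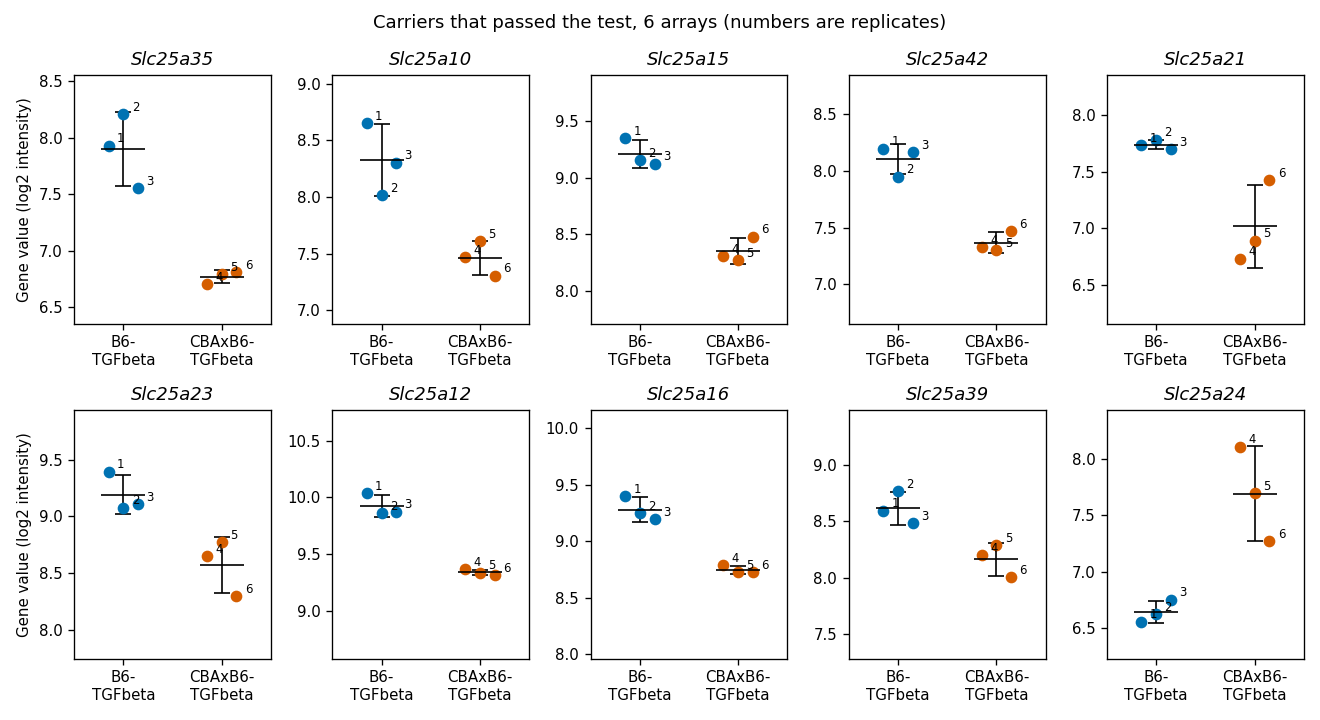
Gene values (log2 intensity, vertical axis, same span in every panel) of the 10 carriers that passed, on the 3 B6-TGFbeta arrays (blue) and the 3 CBAxB6-TGFbeta arrays (orange), with the mean and SD as black lines and replicate numbers beside the points. The groups do not overlap in any panel, and Slc25a24 is the one carrier with CBAxB6-TGFbeta above.

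All 4 di- and tricarboxylate carriers had differences below 0, and 2 passed. Slc25a10 exchanges malate and succinate for phosphate, and had 8.65, 8.02 and 8.30 in B6-TGFbeta against 7.47, 7.61 and 7.31 in CBAxB6-TGFbeta. The Slc25a10 difference was -0.86 (SE 0.16, limma adjusted p 0.0134), 1.82-fold, with 12 of 12 probe sets lower. It missed the threshold without B6-TGFbeta replicate 3 (0.0566). Slc25a21 carries oxodicarboxylates of lysine and tryptophan breakdown, and had 7.74, 7.78 and 7.70 in B6-TGFbeta against 6.73, 6.89 and 7.43 in CBAxB6-TGFbeta. The B6-TGFbeta arrays of Slc25a21 were close together and CBAxB6-TGFbeta replicate 6 lay nearest to them. Its difference was -0.72 (SE 0.16, limma adjusted p 0.0308), with 14 of 14 probe sets lower. It passed in just 1 of the 6 fits that left out an array, that without CBAxB6-TGFbeta replicate 6 (0.00188). The brightest probe set of Slc25a21 alone gave -0.58 and missed the threshold (limma adjusted p 0.142). The 2-oxoglutarate carrier Slc25a11, part of the malate-aspartate shuttle, stood at -0.34 (SE 0.13, limma adjusted p 0.162). The citrate carrier Slc25a1, which feeds cytosolic acetyl-CoA, stood at -0.25 (SE 0.15, limma adjusted p 0.381) and its groups overlapped.

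Of 9 amino acid carriers 2 were lower and 7 did not pass. Slc25a15, the ornithine carrier that joins the mitochondrial and cytosolic steps of the urea cycle, had 9.35, 9.16 and 9.13 in B6-TGFbeta and 8.31, 8.27 and 8.48 in CBAxB6-TGFbeta. The means were 9.21 ± 0.12 and 8.35 ± 0.11 (SD, n = 3 each), a difference of -0.86 (SE 0.11, limma adjusted p 0.00232), 1.81-fold. The gap between the groups was far wider than the spread within either, and 9 of 9 probe sets were lower. The call was kept with each array left out in turn and gene values kept. It was lost when probe sets were combined again without B6-TGFbeta replicate 2 (-0.89, limma adjusted p 0.0575). Slc25a29, a carrier of arginine and lysine, and Slc25a2, a second ornithine carrier, stood at 0.03 (SE 0.14) and -0.02 (SE 0.12). Slc25a15 minus Slc25a29 shifted by -0.89, again with p = 0.1 in the exact permutation test. This pair too was chosen after its values were seen, so no conclusion is drawn from that p.

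Slc25a12, the aspartate-glutamate carrier aralar of the malate-aspartate shuttle, had 10.04, 9.86 and 9.87 in B6-TGFbeta and 9.36, 9.33 and 9.32 in CBAxB6-TGFbeta. Its difference was -0.59 (SE 0.095, limma adjusted p 0.00761), with 19 of 19 probe sets lower. The call was kept with each array left out in turn and gene values kept. It was lost when probe sets were combined again without B6-TGFbeta replicate 2 (-0.53, limma adjusted p 0.108). The brightest probe set of Slc25a12 alone gave -0.07 (adjusted p 0.857). The liver-type isoform Slc25a13, citrin, stood at -0.25 (SE 0.091, limma adjusted p 0.144) with 18 of 20 probe sets lower. Slc25a12 minus Slc25a13 was 1.39, 1.30 and 1.27 in B6-TGFbeta and 1.03, 0.92 and 1.00 in CBAxB6-TGFbeta, without overlap. The exact permutation test gave p = 0.1, the smallest possible, for a pair chosen after its values were seen. It cannot decide whether these paralogs differed unequally. The glutamate carriers Slc25a22 and Slc25a18 (-0.08 and -0.13), the glycine carrier of heme synthesis Slc25a38 (-0.23) and the branched-chain amino acid carrier Slc25a44 (-0.03) did not pass.

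Among carriers of cofactors, nucleotides and glutathione, 3 of 9 were lower. Slc25a42, which imports coenzyme A, had 8.20, 7.95 and 8.17 in B6-TGFbeta and 7.33, 7.30 and 7.47 in CBAxB6-TGFbeta. Its difference of -0.74 (SE 0.11, limma adjusted p 0.00453) passed with each array left out in turn and gene values kept. Slc25a42 missed the threshold when probe sets were combined again without B6-TGFbeta replicate 2 (-0.69, limma adjusted p 0.154). Slc25a16, also tied to coenzyme A in the matrix, had 9.40, 9.24 and 9.19 against 8.79, 8.73 and 8.73, a difference of -0.53 (SE 0.097, limma adjusted p 0.0127). The groups were apart for both genes, and Slc25a16 missed the threshold without B6-TGFbeta replicate 1 (0.0703) and on its brightest probe set (-0.37, 0.450). Slc25a39, which brings glutathione into the matrix, had 8.59, 8.77 and 8.48 against 8.20, 8.29 and 8.01, a difference of -0.45 (SE 0.12, limma adjusted p 0.0494). This call was at the edge of the threshold: it was lost with any of the 6 arrays left out, and the brightest probe set of Slc25a39 stood at 0.001. Its paralog Slc25a40 stood at 0.04 (SE 0.11). The peroxisomal carrier Slc25a17 (-0.32), the S-adenosylmethionine carrier Slc25a26 (-0.27) and the pyrimidine nucleotide carriers Slc25a36 (-0.20) and Slc25a33 (-0.20) did not pass, nor did Slc25a32, tied to flavin and folate transport (0.29, SE 0.17).

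The largest fold among the lower carriers belonged to Slc25a35, whose substrate is not settled. Its arrays stood at 7.93, 8.21 and 7.55 in B6-TGFbeta and at 6.70, 6.79 and 6.81 in CBAxB6-TGFbeta. The means were 7.90 ± 0.33 and 6.77 ± 0.057 (SD, n = 3 each), a difference of -1.13 (SE 0.15, limma adjusted p 0.00336), 2.18-fold, with 8 of 8 probe sets lower. B6-TGFbeta replicate 2, the array with the brown fat signal, was the highest. Without it and with gene values kept the difference was -0.97 (limma adjusted p 0.00744). When probe sets were combined again without that array, the difference was -0.89 (limma adjusted p 0.0393). With the 3 probe sets Slc25a35 shares with Rangrf it was -0.99 (0.00284). The brightest probe set of Slc25a35 alone gave -1.02 and missed the threshold (limma adjusted p 0.0971). The orphan carriers Slc25a34, Slc25a43 and Slc25a46 stood at -0.21, 0.17 and -0.14 and did not pass.

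**Figure D3:**
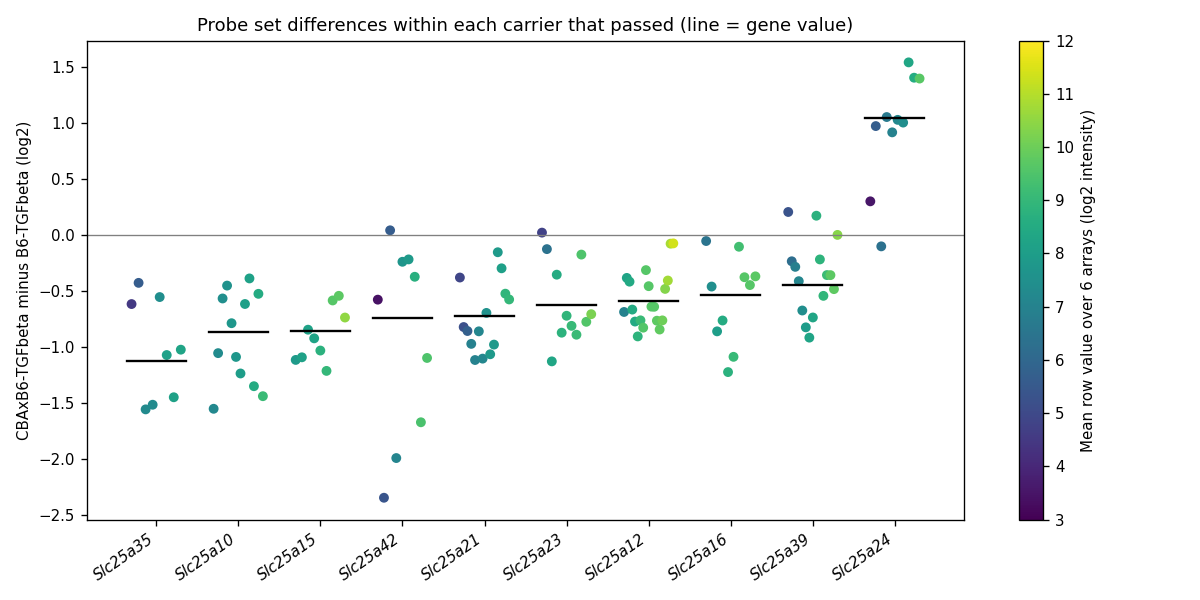
Difference of each probe set (CBAxB6-TGFbeta minus B6-TGFbeta, log2, vertical axis) within the 10 carriers that passed, ordered from dim to bright within a gene, with colour for the mean intensity and a black line for the gene value. Of the 107 probe sets of the 9 lower carriers, 102 lie below 0, while those of Slc25a42 run from -2.35 to 0.04.

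Probe sets of a gene share the same RNA, so their agreement describes the measurement and is not replication. Of 107 probe sets of the 9 lower carriers, 102 had a difference below 0. Those of Slc25a42 ran from -2.35 to 0.04. In Slc25a15 they all lay between -1.21 and -0.54.

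The carnitine-acylcarnitine carrier Slc25a20, which moves fatty acids into the matrix for oxidation, had 8.70, 8.85 and 8.47 in B6-TGFbeta and 8.22, 8.33 and 8.28 in CBAxB6-TGFbeta. The groups did not overlap, with B6-TGFbeta replicate 2 the highest, and the difference of -0.40 (SE 0.12, limma adjusted p 0.0730) did not pass. Without that array it was -0.31 (limma adjusted p 0.222). Slc25a45, a relative of this branch, stood at -0.09. The mitoferrins, which bring iron in for heme and iron-sulfur clusters, did not pass either: Slc25a28 had 8.39, 8.63 and 8.48 against 8.63, 8.37 and 8.21 with overlapping groups, and Slc25a37, the erythroid form, differed by 0.003 (SE 0.11). Erythroid markers had summed intensities of 566.8 to 718.4 in B6-TGFbeta and 563.8 to 760.0 in CBAxB6-TGFbeta. None of the 5 measured passed, and their median difference was 0.19. Only 1 of them was below 0, Slc4a1 (-0.73), while Hbb-b1 stood at 0.94 (limma adjusted p 0.0728). The sums therefore do not show that each marker was alike in the groups.

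None of the 6 genes of the uncoupling protein branch passed (limma, unadjusted p above 0.05 in each). Ucp1 had 5.42, 10.93 and 5.13 in B6-TGFbeta and 6.16, 5.68 and 6.22 in CBAxB6-TGFbeta. One B6-TGFbeta array thus stood far above the other 5, and the mean difference of -1.14 (SE 1.25, limma adjusted p 0.670) rested on it. Without B6-TGFbeta replicate 2 the difference was 0.75 (limma adjusted p 0.0546), and with the mean of the probe sets in place of median polish, added after seeing the data, 0.85 (adjusted p 0.0348). In Ucp3, the muscle and brown fat form, the arrays stood at 5.19, 5.79 and 4.94 against 4.98, 5.39 and 5.20, with replicate 2 again the highest. The Ucp3 difference was -0.11 with all arrays (SE 0.20) and 0.13 without replicate 2 (limma adjusted p 0.752). Ucp2, found in many tissues and in leukocytes, had 9.72, 9.56 and 9.65 against 9.63, 9.33 and 8.94. Its groups overlapped, at -0.34 (SE 0.16, limma adjusted p 0.257). The brain-enriched Slc25a14 and Slc25a27 and the kidney-enriched Slc25a30 stood at 0.05, 0.001 and -0.13.

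B6-TGFbeta replicate 2 was the highest of all 6 arrays for 6 of 15 brown fat markers, 9 of 10 adipocyte markers and 8 of 8 adrenal markers. Cidea, a lipid droplet protein of brown fat, stood at 7.15 there and at 4.29 to 5.25 elsewhere, and Cox8b at 9.02 and at 5.94 to 6.76. The adipokine Adipoq stood at 8.57 and at 4.88 to 6.58, the last value in CBAxB6-TGFbeta replicate 4. Other brown fat markers did not peak in replicate 2. Zic1 stood at 5.50 there and at 5.64 to 5.90 elsewhere, Dio2 at 7.19 and at 6.47 to 7.38, and Lhx8 at 5.03 and at 4.90 to 5.28. The summed intensity of the brown fat list ran from 3652 to 6442 in B6-TGFbeta and from 2190 to 2287 in CBAxB6-TGFbeta, that of the adipocyte list from 2160 to 5878 and from 1825 to 2920, and that of the adrenal list from 433.1 to 5368 and from 401.3 to 433.2. Star, of adrenal steroid synthesis, stood at 10.74 in replicate 2, 8.90 in replicate 1 and 5.86 to 6.46 elsewhere. The 4 brown fat markers that passed, all lower (4.57% of all genes), were Fabp3, Gyk, Slc27a1 and Prdm16. For these B6-TGFbeta replicate 2 did not stand apart, Gyk for example being at 10.46, 10.15 and 10.26 in B6-TGFbeta. Gyk and Fabp3 had the highest B6-TGFbeta means of the list (10.29 and 10.12), against 9.08 and 8.74 in CBAxB6-TGFbeta. The gap between the groups in the summed intensity of the brown fat list thus includes these genes and does not measure brown fat alone.

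**Figure D4:**
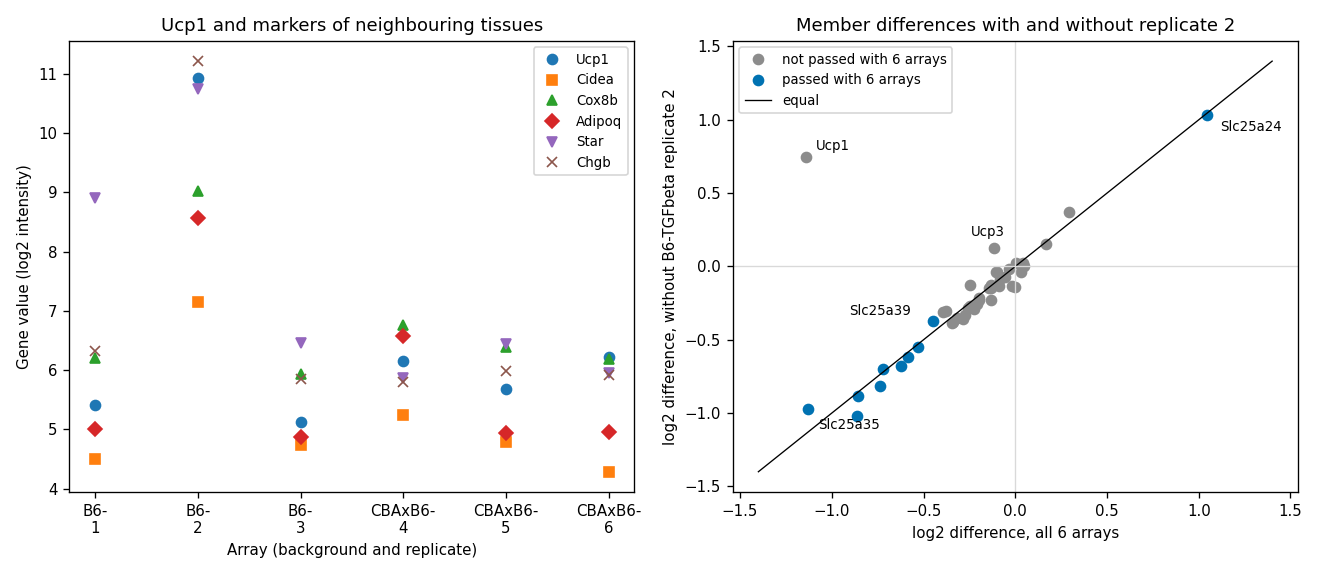
Left, gene values (log2 intensity, vertical axis) of Ucp1, the fat genes Cidea, Cox8b and Adipoq and the adrenal genes Star and Chgb on each array (horizontal axis). Right, the log2 difference of each carrier with all 6 arrays (horizontal axis) and without B6-TGFbeta replicate 2 (vertical axis), where Ucp1 moves from -1.14 to 0.75 and Slc25a35 from -1.13 to -0.97.

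B6-TGFbeta replicate 2 was the highest B6-TGFbeta array in 12 of 44 members, against 21 for replicate 1 and 11 for replicate 3, and it exceeded the mean of those arrays by at least 0.2 in 9 members, by 5.66 in Ucp1, 0.73 in Ucp3 and 0.46 in Slc25a35. Without it the members' median was -0.22. In that fit 6 members were lower (2.66% of all genes) and 1 was higher (2.14% of all genes). Slc25a10, Slc25a12, Slc25a15, Slc25a16, Slc25a35 and Slc25a42 were the lower ones, while Slc25a21, Slc25a23 and Slc25a39 stood at -0.70, -0.68 and -0.37 without passing (0.0832, 0.0560 and 0.155). Leaving out B6-TGFbeta replicate 1 gave 5 lower members (1.52% of all genes), as did leaving out replicate 3 (2.32% of all genes). Leaving out CBAxB6-TGFbeta replicate 4, 5 or 6 gave 7 in each case, against 3.95%, 2.55% and 4.22% of all genes. In either direction 7 members passed without replicate 2 (4.8% of all genes), against 10 with all arrays (7.65% of all genes). When each gene was represented by its brightest probe set, 4 members were lower (1.38% of all genes) and 1 was higher (1.64%, and 3.02% in either direction). No member passed when B6-TGFbeta replicate 3 stood alone for its group (0.22% of all genes, 0.0784% lower and 0.142% higher) or without moderation of the variances (0.309%, 0.196% lower and 0.113% higher). When probe sets were combined again without replicate 2, a choice added after seeing the data, Slc25a35 was the 1 member that passed (0.377% of all genes, 0.206% lower and 0.171% higher).

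The windows from 250 bases before to 50 bases after the gene start, from RefSeq on GRCm38.p6, were available for 35 of the 44 members. They are shown for Slc25a15, Slc25a42 and Slc25a39, of the lower carriers, and Slc25a24, the higher one, so that carriers that differed in opposite directions can be compared. Capitals mark matches, on either strand, to GGGCGG (the GC box), AGGTCA (a nuclear receptor site), CACGTG (the E-box) and TGACGTCA (the cAMP response element); none of these words contains another. The windows lie at chr8:22398572-22398871 (minus strand, 1 of 2 listed starts), chr8:70212232-70212531 (minus strand), chr11:102407468-102407767 (minus strand) and chr3:109122899-109123198 (plus strand), written 5′ to 3′ along the gene.
Slc25a15: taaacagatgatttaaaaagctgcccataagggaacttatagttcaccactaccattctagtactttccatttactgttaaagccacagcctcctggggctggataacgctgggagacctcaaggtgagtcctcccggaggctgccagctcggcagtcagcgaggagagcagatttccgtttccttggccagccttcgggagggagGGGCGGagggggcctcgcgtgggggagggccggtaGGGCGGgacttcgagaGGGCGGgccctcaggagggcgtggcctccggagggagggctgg
Slc25a42: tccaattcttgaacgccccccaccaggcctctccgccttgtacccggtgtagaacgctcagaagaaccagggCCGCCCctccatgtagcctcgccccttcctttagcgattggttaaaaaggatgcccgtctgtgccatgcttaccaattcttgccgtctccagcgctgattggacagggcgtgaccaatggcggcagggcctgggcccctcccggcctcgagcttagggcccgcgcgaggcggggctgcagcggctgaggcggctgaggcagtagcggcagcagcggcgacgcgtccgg
Slc25a39: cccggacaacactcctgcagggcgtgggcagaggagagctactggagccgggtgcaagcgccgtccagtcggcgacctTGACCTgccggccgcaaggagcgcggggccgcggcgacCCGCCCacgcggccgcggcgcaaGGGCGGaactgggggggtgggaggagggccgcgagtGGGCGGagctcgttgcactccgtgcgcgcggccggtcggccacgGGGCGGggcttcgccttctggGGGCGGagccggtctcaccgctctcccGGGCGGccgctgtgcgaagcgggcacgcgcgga
Slc25a24: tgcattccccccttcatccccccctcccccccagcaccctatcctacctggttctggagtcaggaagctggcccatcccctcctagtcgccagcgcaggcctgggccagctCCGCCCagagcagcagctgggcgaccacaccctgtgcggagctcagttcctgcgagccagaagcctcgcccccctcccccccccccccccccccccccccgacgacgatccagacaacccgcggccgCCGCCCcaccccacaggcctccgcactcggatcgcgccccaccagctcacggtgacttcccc

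The GC box was matched in 29 of 35 members (82.9%), against 53.7% of the 13672 measured genes with a window, and both the lower carriers shown and Slc25a24 hold it. The nuclear receptor site was matched in 5 members (14.3%, against 16.2%), and Slc25a39 was the only one of the 8 lower carriers with a window among them; Ucp1 and Ucp3 were others. The E-box was matched in 7 members (20%, against 9.57%), including the other listed start of Slc25a15, and the cAMP response element in Slc25a25 and Slc25a36 (5.71%, against 2.74%). These are matches of letters in a short window and no test was made of them.

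Genes that work with the carriers were counted in the same fit, in lists chosen with earlier results of these arrays known. No gene of these 8 lists was higher, against 3.08% of all genes. The counts of lower genes below stand against 4.57% of all genes. In the carnitine shuttle and fatty acid oxidation list 7 of 10 were lower, 3 did not pass, and the median was -0.64. The carnitine importer Slc22a5 (-0.91, SE 0.10, limma adjusted p 0.00100) and the carnitine palmitoyltransferase Cpt2 (-0.81, SE 0.095) were lower beside a carnitine carrier that did not pass. So were the dehydrogenase Acadm (-0.96) and Cpt1b (-1.01), the muscle and brown fat form of the outer enzyme. Cpt1b rested on 2 probe sets. Cpt1a, another form of that enzyme, on 19 probe sets, stood at -0.42 (limma adjusted p 0.0639) and did not pass. In the malate-aspartate and glycerol phosphate shuttles 4 of 6 were lower: Mdh1 (-0.78), Gpd1 (-1.21), Got1 (-0.58) and Mdh2 (-0.47). Of 10 citrate cycle and related enzymes 6 were lower, with Pck1 of gluconeogenesis (-1.99), the 2-oxoglutarate dehydrogenase Ogdh (-0.66), Idh3a (-0.63) and Idh2 (-0.49) first. B6-TGFbeta replicate 2 was the highest of all arrays in 7 of 10 carnitine list genes and 6 of 10 citrate list genes. Its part in these differences was not tested.

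Beside the lower ornithine carrier, 1 of 9 urea cycle and ornithine enzymes passed, the argininosuccinate lyase Asl (-0.69, SE 0.10, limma adjusted p 0.00370), and the list had a median of 0.05. The count of 1, like those of the lists that follow, stands against 4.57% of all genes lower. Otc, the matrix enzyme that uses imported ornithine, was dim, with group means of 3.90 (B6-TGFbeta) and 3.95 (CBAxB6-TGFbeta). Its difference of 0.05 (SE 0.10), which is also the list median, therefore says little about that enzyme in these kidneys. The ornithine aminotransferase Oat stood at -0.24 (SE 0.11). The arginase Arg1, next to Asl by p in the list, stood at 0.68 (SE 0.23, limma adjusted p 0.121). Of 9 heme and iron genes Cpox of heme synthesis was lower (-0.51) and 8 did not pass. Of 14 other mitochondrial carrier and channel genes 4 were lower. They were Brp44l, the pyruvate carrier subunit now called Mpc1 (-0.56), Mcart1 (-0.43), and the sideroflexins Sfxn4 (-0.68) and Sfxn1 (-0.40), the latter a serine carrier. Mcart1 is now the NAD carrier gene Slc25a51, which the symbol rule leaves out. That rule also leaves out Mcart6 (0.07), Mtch1 (-0.19) and Mtch2 (-0.06), which did not pass. Of 14 genes of outer membrane channels and carrier import only the channel Vdac1 was lower (-0.59), with a median of 0.004 in the list. Of 8 regulators of mitochondrial gene expression Ppara (-0.72), Esrrg (-0.59) and the coactivator Ppargc1a (-0.60) were lower, and Nrf1 and Tfam stood at -0.06 and -0.22.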

How the data were processed

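The deposited table holds log2 intensities of a mouse Affymetrix array, 1 row per exon-level probe set; RMA and Partek are named, without versions, per the submitters' processing notes, and the sources used here give neither the normalization settings nor the genome build. Array medians were 7.27 to 7.34. Rows with 1 symbol (212097 of 241576) were combined per gene by median polish, and CBAxB6-TGFbeta minus B6-TGFbeta was fitted over all 6 arrays with limma 3.58.1 (R 4.3.3), moderated, two-sided, Benjamini-Hochberg adjusted over 20416 genes, with errors as moderated SE. The fit was tested on simulated data. Depth has no meaning for arrays, and their number limits precision. Members, lists and tests were chosen with earlier results of these data known. Values per array are printed for members that passed, Ucp1 to Ucp3, members with a difference of at least 0.5 in size, and the brightest member of a role group with none of these, besides Slc25a4. In each partner list up to 4 genes that passed are named, by smallest p. Cpt1a, Mcart6, Mtch1, Mtch2, Otc, Oat, Arg1, Nrf1 and Tfam, like the markers named, were chosen after their values were seen. Alternatives (16 planned, 13 added) changed normalization, gene summary, filters, moderation, array weights and the arrays used. Rows with several symbols were used in 1 added alternative only.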

Additional observations from a re-analysis of the deposited data

How the results depend on the processing

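No paired analysis was made, because the replicate numbers only run on across the groups and no litter is given for each array. The p-values therefore take no account of litters. Over the 16 alternatives and the 13 added after seeing the data, the median log2 difference of the members stayed below 0. With the brightest row of each gene 4 members were lower, 617 of all genes passed and the median was -0.13, and without the dimmest genes the median was -0.24. With no moderation of the variances 0 members were lower and 0 higher, and 63 of all genes passed (0.196% lower and 0.113% higher); with B6-TGFbeta replicate 3 as the only B6-TGFbeta array, where the lone array is assumed to vary like the others, both counts were 0 and 45 genes passed (0.0784% lower and 0.142% higher). With each array left out in turn and gene values kept, 5 to 7 members were lower, 0 to 1 higher and 494 to 1550 genes passed, with medians of -0.24 to -0.16. With the mean of rows the ranges were 5 to 9, 1 to 2 (the second being Ucp1) and 709 to 1746 (982 without B6-TGFbeta replicate 3), with medians of -0.25 to -0.14. When the rows were combined again over the 5 remaining arrays, they were 0 to 2, 0 to 1 and 57 to 554, with medians of -0.23 to -0.13 (59 genes without B6-TGFbeta replicate 1, 117 without CBAxB6-TGFbeta replicate 5, and 269 with a median of -0.17 without CBAxB6-TGFbeta replicate 4); there the prior degrees of freedom of limma were 1.78 to 1.91, against 4.50 to 5.86 with gene values kept. Without B6-TGFbeta replicate 2 that last form gave 1 lower member, Slc25a35, and 77 genes (0.206% lower and 0.171% higher).

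Of the 10 members that passed, each missed the threshold under at least 2 of the 16 alternatives: Slc25a15 and Slc25a42 under 2, Slc25a10, Slc25a12, Slc25a24 and Slc25a35 under 3, Slc25a16 under 4, Slc25a23 under 6, Slc25a21 under 8 and Slc25a39 under 12. None of these changed sign except Slc25a39 with its brightest row (0.001). Members that did not pass changed sign as follows. With the brightest row Slc25a18 stood at 0.13, Slc25a26 at 0.0249 and Slc25a30 at 0.12, and with the brighter rows Slc25a18 stood at 0.0194. Without B6-TGFbeta replicate 2 Ucp1 stood at 0.75, 0.85 with the mean of rows and 0.77 with rows combined again, and Ucp3 at 0.13, 0.17 and 0.13, and with B6-TGFbeta replicate 3 alone they stood at 0.89 and 0.25. The lowest values with 1 array left out were -2.16 for Ucp1 and -0.30 for Ucp3. With the mean of rows Ucp3 reached 0.00361 without CBAxB6-TGFbeta replicate 4 (0.0132 with rows combined again), Slc25a18 0.00484 without B6-TGFbeta replicate 3 and 0.00880 without CBAxB6-TGFbeta replicate 6, and Slc25a34 0.00137 without the latter. Members that differed by under 0.1 were not followed. For changes in counts of calls with the same direction the cause was not tested. Slc25a31 was the dimmest member, at a mean of 3.64 in B6-TGFbeta.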

Other observations

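Albumin (Alb) stood at 9.45 in B6-TGFbeta replicate 2 and 10.94 in CBAxB6-TGFbeta replicate 6, and at 6.00 to 6.29 on the other arrays. The adrenal medulla gene Chgb stood at 11.21 in B6-TGFbeta replicate 2 and at 5.80 to 6.32 elsewhere, and the cortex enzyme gene Cyp11b1 at 9.51 in B6-TGFbeta replicate 2, 7.25 in replicate 1 and 5.66 to 6.00 elsewhere. Skeletal muscle markers, of interest beside Ucp3 and Slc25a4, had summed linear intensities of 740.0 to 855.5 in B6-TGFbeta and 740.8 to 779.5 in CBAxB6-TGFbeta. Pvalb was the 1 of 10 that was lower (4.57% of all genes), and the other 9 did not pass. Which tissue or cell type the Pvalb value came from was not tested.

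Of the 34 members that did not pass, 11 differed by under 0.1 and 22 by 0.1 to 0.5 on the log2 scale, and Ucp1 by more.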
